A study of Rattus norvegicus with 12 samples.

Results

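Guanosine 3′,5′-cyclic monophosphate (cGMP) signalling was examined through 9 genes of the rat PAC1 transcriptome, of 33294 gene symbols in the count table. They comprise the soluble guanylate cyclase subunits Gucy1b1, Gucy1a1 and Gucy1a2, the cGMP-dependent kinase Prkg1, the phosphodiesterases Pde5a and Pde3a, and the natriuretic peptide receptors Npr1, Npr2 and Npr3. The genes were listed by name because Gucy1b1 was much lower after QKI knockdown than in control cells. The values of these 9 genes in that comparison are therefore given below as a description, without a test. Of the 9 genes, 8 had enough counts to be tested, and Gucy1a2 did not.

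PAC1 is a smooth muscle cell (SMC) line from rat pulmonary artery, here grown under conditions that favour its more differentiated state. The study reports that control cells of this experiment were less differentiated, in splicing and transcript levels, than those of its other RNA-seq experiment. The study knocked down the RNA-binding proteins RBPMS, RBFOX2 and QKI to compare what each contributes to the SMC transcriptome. Cells were reverse transfected with 90 pmol of siRNA and transfected again after 24 h, and RNA was taken 48 h after the second transfection per the labels (the study describes longer intervals, and the difference was not resolved). The 4 groups held 3 libraries each: the control received an siRNA called C2, and the groups RBPMS-KD, RBFOX2-KD and QKI-KD received an siRNA against RBPMS, RBFOX2 or QK (the QKI gene, listed as Qk). All 12 libraries came from 1 cell line, and a stranded kit was used after poly(A) enrichment. The study's methods state that knockdowns were repeated as biological replicates, while the labels do not say which libraries were separate cultures, and p-values measure the spread between these libraries.

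In vascular smooth muscle, cGMP is made by soluble and by membrane-bound enzymes. Nitric oxide activates soluble guanylate cyclase, a dimer of an alpha and a haem-binding beta subunit, while natriuretic peptides bind receptors at the cell surface that carry their own cyclase domain. The cGMP produced activates cGMP-dependent protein kinase, which lowers calcium and its effect on the contractile apparatus and so relaxes the vessel, and phosphodiesterases end the signal by hydrolysing cGMP.

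The sense strands of the siRNAs are shown because they define the groups. The study lists 1 sequence for each target, so that effects of a sequence outside its target cannot be told apart from those of losing the target.
C2: aagguccggcucccccaaaug
RBPMS: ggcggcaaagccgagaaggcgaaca
RBFOX2: gcaaugguucagccuuuua
QK: ggacuuacagcuaaacaac

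The promoters of Gucy1b1 and Gucy1a1 are shown because these 2 subunit genes lie next to each other and were both far lower in QKI-KD and RBPMS-KD. Sequences are from RefSeq on assembly GRCr8 (the counts were made on mRatBN7.2) and run from 250 bases before to 50 bases after the annotated start of each gene, written 5′ to 3′ on the minus strand that holds both genes. The Gucy1b1 window is chr2:169696938-169697237 and the Gucy1a1 window is chr2:169779574-169779873. Capitals mark the GC box (GGGCGG) and the CCAAT box (CCAAT, read as its reverse complement on the opposite strand).
Gucy1b1: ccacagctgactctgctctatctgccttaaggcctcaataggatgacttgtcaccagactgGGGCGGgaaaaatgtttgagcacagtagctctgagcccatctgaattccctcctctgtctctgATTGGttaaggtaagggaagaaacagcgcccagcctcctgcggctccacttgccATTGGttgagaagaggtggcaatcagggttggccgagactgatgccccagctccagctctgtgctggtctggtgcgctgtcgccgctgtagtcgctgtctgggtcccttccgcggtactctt
Gucy1a1: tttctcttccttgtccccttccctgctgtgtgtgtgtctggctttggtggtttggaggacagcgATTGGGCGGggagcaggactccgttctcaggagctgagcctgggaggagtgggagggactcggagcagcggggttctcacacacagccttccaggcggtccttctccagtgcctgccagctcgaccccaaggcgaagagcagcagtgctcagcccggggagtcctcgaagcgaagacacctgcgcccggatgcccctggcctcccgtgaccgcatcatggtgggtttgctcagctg

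Motifs were searched on both strands. The Gucy1b1 window held 1 GC box and 2 CCAAT boxes. The Gucy1a1 window held 1 of each, and these share 2 bases. Both motifs are common in rat promoters: a GC box occurred in 33.1% and a CCAAT box in 37.5% of 33465 promoter windows of this length. Neither window held a CArG box (1.64% of windows), the motif bound by serum response factor in many contractile genes, nor a cAMP response element (1.83%), an AP-1 site (TGANTCA, 7.33%) or a TATA box (TATAAA, 14.2%). A match describes the letters in the window and not the binding of a factor.

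Levels are given as CPM, counts scaled to a common library total after TMM, and a mean ± SD is over 3 libraries unless stated. Library totals ran from 110595399 to 151665474 counts, and 18438 genes passed the filter on low counts. The targeted genes followed the labels: Rbpms was 40.7 ± 2.60 CPM in control and 7.21 ± 0.301 in RBPMS-KD, Rbfox2 was 154 ± 4.37 and 37.3 ± 0.943 in RBFOX2-KD, and Qk was 233 ± 7.04 and 26.6 ± 0.649 in QKI-KD. The targets also moved outside their own group. In RBFOX2-KD Rbpms fell to 23.1 ± 1.90 CPM (log2 fold change -0.81, adjusted p = 2.10e-09) and Qk to 174 ± 1.32 CPM (-0.42, adjusted p = 1.70e-08). In QKI-KD Rbpms stood at 29.0 ± 0.957 CPM (-0.49, adjusted p = 9.32e-07), and in RBPMS-KD Qk rose to 265 ± 10.6 CPM (0.18, adjusted p = 0.00030). Rbfox2 was lower by smaller amounts in RBPMS-KD (-0.12, adjusted p = 0.0193) and QKI-KD (-0.15, adjusted p = 0.00428). Transcript lengths were not used here, so levels are compared between groups and not between genes.

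Most of the tested genes were lower in both RBPMS-KD and RBFOX2-KD. By edgeR's quasi-likelihood test with Benjamini-Hochberg adjustment over all genes, all 8 tested genes passed an adjusted p under 0.05 in RBPMS-KD, 7 lower and 1 higher, where 59.4% of all tested genes passed (29.0% lower and 30.4% higher). In RBFOX2-KD again 7 were lower and 1 higher, where 60.3% of all genes passed (30.1% in each direction). With a log2 fold change beyond 1 in addition, here called changed, 4 fell in RBPMS-KD (Gucy1b1, Gucy1a1, Pde3a and Npr1), where 9.66% of all genes were changed (4.50% lower), and 2 fell in RBFOX2-KD (Gucy1b1 and Pde5a), where 11.7% were (4.73% lower). Without regard to a test, the knockdown libraries lay wholly above control for 1 gene and wholly below for 7 in RBPMS-KD, as they did for 31.2% and 30.5% of all genes, and for 1 and 6 in RBFOX2-KD, beside 34.8% and 33.8%. The median log2 fold change of the 8 genes was -0.88 in RBPMS-KD and -0.68 in RBFOX2-KD, beside 0.0085 and 0.015 over all tested genes. These comparisons share the control libraries with each other and with QKI-KD, so the direction in one is not independent of that in another.

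The comparison of QKI-KD with control, through which the genes came to be listed, was less uniform. The values of the listed genes in it are a description. Of the 8 genes, 6 had a negative and 2 a positive log2 fold change. It was beyond 1 in size for Gucy1b1, Gucy1a1 and Pde3a on the lower side and for Npr3 on the higher side. Of all tested genes, 9.24% were lower and 8.28% higher beyond that size with an adjusted p under 0.05 in addition. The QKI-KD libraries lay wholly below control for 5 genes and wholly above for 2, beside 36.3% and 35.9% of all genes. The median log2 fold change was -0.77, beside 0.0070 over all tested genes, and Npr2 and Npr3 were the 2 genes on the higher side.

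**Figure D1:**
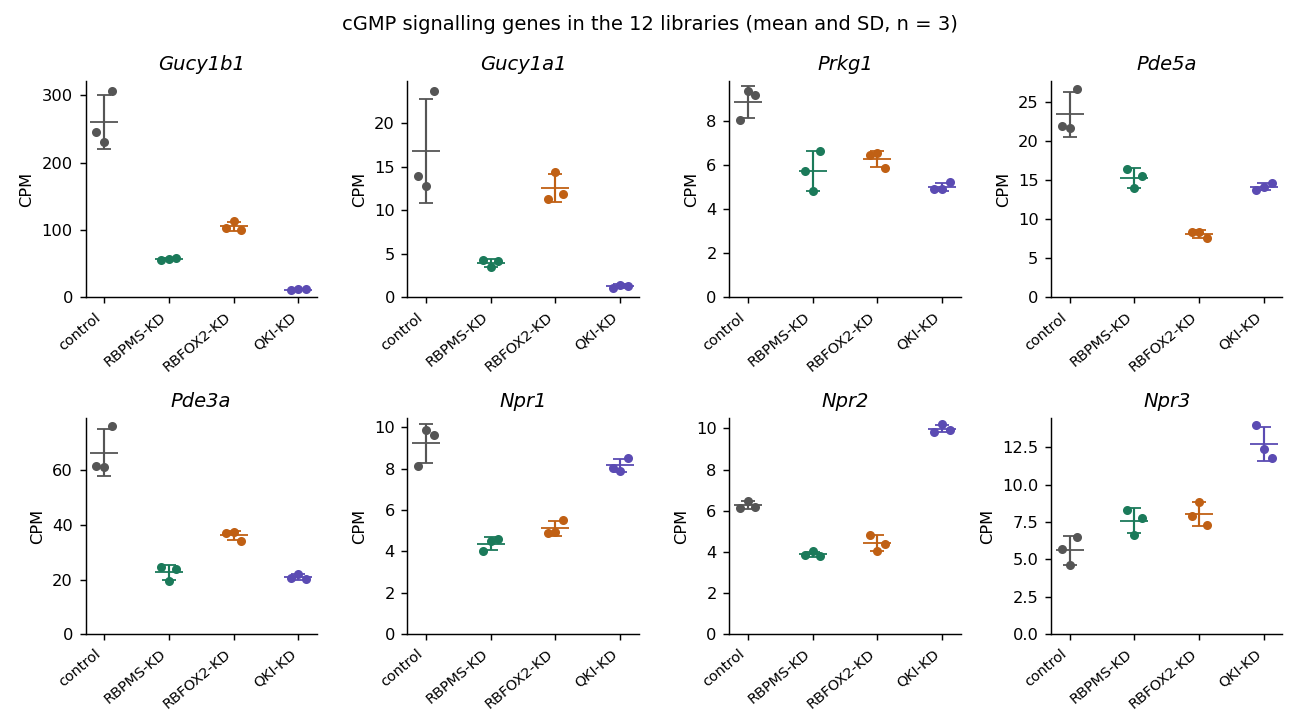
Level of the 8 tested cGMP signalling genes in each library (points, CPM, axes from 0) with the mean and SD of 3 libraries, by group. Gucy1b1 and Gucy1a1 are lowest in QKI-KD, Pde5a is lowest in RBFOX2-KD, and Npr3 is higher in every knockdown than in control.

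Gucy1b1, which encodes the haem-binding beta subunit on which nitric oxide acts, had the widest span of levels among the 8 genes. Control libraries 1, 2 and 3 held 245, 231 and 306 CPM. The RBPMS-KD libraries held 55.5, 56.5 and 58.3 CPM, the RBFOX2-KD libraries 103, 113 and 100 CPM, and the QKI-KD libraries 10.98, 12.4 and 11.9 CPM. The 4 groups did not overlap, and their order was control, RBFOX2-KD, RBPMS-KD and QKI-KD. The mean fell to 21.8% of control in RBPMS-KD (log2 fold change -2.20, SE 0.080, adjusted p = 4.90e-13) and to 40.4% in RBFOX2-KD (-1.31, SE 0.078, adjusted p = 1.68e-10). In QKI-KD it stood at 4.52% of control, a log2 fold change of -4.47 (SE 0.091) from the same fit. Of 10707 genes averaging 5 CPM or more, 9 had a more negative log2 fold change in RBPMS-KD, against 163 in RBFOX2-KD and 1 in QKI-KD.

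Gucy1a1, the alpha subunit that pairs with Gucy1b1, had a less even control group. Its control libraries held 13.9, 12.8 and 23.7 CPM, so that the control mean of 16.8 ± 5.99 rests in part on library 3. RBPMS-KD libraries held 4.27, 3.47 and 4.14 CPM, RBFOX2-KD libraries 11.3, 14.3 and 11.9, and QKI-KD libraries 1.10, 1.48 and 1.33. RBPMS-KD lay wholly below control and above QKI-KD, while RBFOX2-KD overlapped with control. Gucy1a1 fell by 2.09 on the log2 scale in RBPMS-KD (SE 0.185, adjusted p = 3.33e-08). In RBFOX2-KD the log2 fold change was -0.43 (SE 0.167, adjusted p = 0.0366), and this call did not hold without control library 3, when it was -0.097 with an adjusted p of 0.460. It was lost in 8 alternatives in all, DESeq2 among them (adjusted p = 0.109). The description in QKI-KD is a log2 fold change of -3.70 (SE 0.211), or -3.37 without control library 3.

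Gucy1a2, an alternative alpha subunit, was at the limit of detection. It had 0, 2 and 0 counts in control, 2, 2 and 4 in RBPMS-KD, 2, 10 and 0 in RBFOX2-KD and none in the 3 QKI-KD libraries. A count of 3 was taken as the most that 0 counts allow in a library, so its level was not distinguishable between groups at this depth.

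The ratio of the subunit transcripts set RBFOX2-KD apart from control and RBPMS-KD in every library. The ratio of Gucy1b1 to Gucy1a1 counts within a library does not depend on library size, and its change between groups does not depend on transcript length. It was 17.6, 18.0 and 12.9 in control and 13.0, 16.3 and 14.1 in RBPMS-KD, which overlapped (exact permutation test, two-sided, p = 0.5). In RBFOX2-KD it was 9.08, 7.85 and 8.45, below all control and all RBPMS-KD libraries, at p = 0.1 against each, the smallest p that an exact permutation test of 3 against 3 can give. The QKI-KD ratios were 9.94, 8.37 and 8.98, likewise below all control and RBPMS-KD libraries, and overlapped with those of RBFOX2-KD.

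The direct comparison of RBFOX2-KD with RBPMS-KD put both subunits higher in RBFOX2-KD. It does not use the control levels, although the control libraries still entered the filter, the scaling and the estimate of spread. Gucy1a1 was higher by 1.67 on the log2 scale (SE 0.186, adjusted p = 7.71e-07), with only 10 of the 10707 genes higher still, and Gucy1b1 by 0.89 (SE 0.078, adjusted p = 4.66e-08). The libraries of both groups were apart for each gene. In this comparison 6 of the 8 genes passed the adjusted p, 5 higher and 1 lower, where 56.7% of all genes passed (27.9% higher and 28.8% lower). Gucy1a1 alone was changed, where 7.52% of all genes were changed (4.41% higher). The RBFOX2-KD libraries lay wholly above those of RBPMS-KD for 5 genes and wholly below for 1, beside 31.1% and 30.4% of all genes.

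The subunit genes are neighbours on chromosome 2 in the order Tdo2, Asic5, Gucy1b1, Gucy1a1, Map9 and Npy2r among protein-coding genes of the RefSeq table. Tdo2, Asic5 and Npy2r never exceeded 2 counts and were not tested. Map9, which encodes a microtubule-associated protein, held 24.2, 23.8 and 25.8 CPM in control and 18.6, 18.0 and 19.7 in RBPMS-KD. In RBFOX2-KD it held 30.1, 30.6 and 30.2 CPM, and in QKI-KD 25.2, 26.5 and 26.6. Map9 fell in RBPMS-KD (log2 fold change -0.39, adjusted p = 9.87e-07) and rose in RBFOX2-KD (0.30, adjusted p = 1.80e-05), the opposite direction to Gucy1b1. In QKI-KD its log2 fold change was 0.082 (SE 0.045), beside -4.47 and -3.70 for the 2 subunits.

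The genes whose pattern over the 12 libraries was most like that of Gucy1b1 were found from the root mean square difference of centred log2 CPM, among 10046 named genes averaging 5 CPM or more. The nearest was Itgb8, an integrin beta subunit, at 0.333, followed by the chemerin receptor Cmklr1 at 0.368, Gucy1a1 at 0.429, the receptor Notch3 at 0.438 and the galectin-related Lgalsl at 0.469. Since these genes were chosen by their levels, those levels are a description. Itgb8 went from 42.8 ± 3.16 CPM in control to 11.9 ± 1.69 in RBPMS-KD, 27.6 ± 1.40 in RBFOX2-KD and 3.32 ± 0.502 in QKI-KD. Cmklr1 stood at 230 ± 31.0, 78.1 ± 6.30, 92.2 ± 0.788 and 17.8 ± 1.87 CPM in the same order, and Notch3 at 75.6 ± 19.5, 14.1 ± 2.701, 26.6 ± 4.27 and 5.82 ± 0.770. The control libraries of Cmklr1 and Notch3 ran from 207 to 266 CPM and from 60.6 to 97.7 CPM, each with library 3 highest, as for both subunits of the cyclase. Lgalsl, at 50.4 ± 1.03 CPM in control, had no such spread. Of the other members Pde3a was nearest, at place 269 of that order, and Npr3 was at place 9805.

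**Figure D2:**
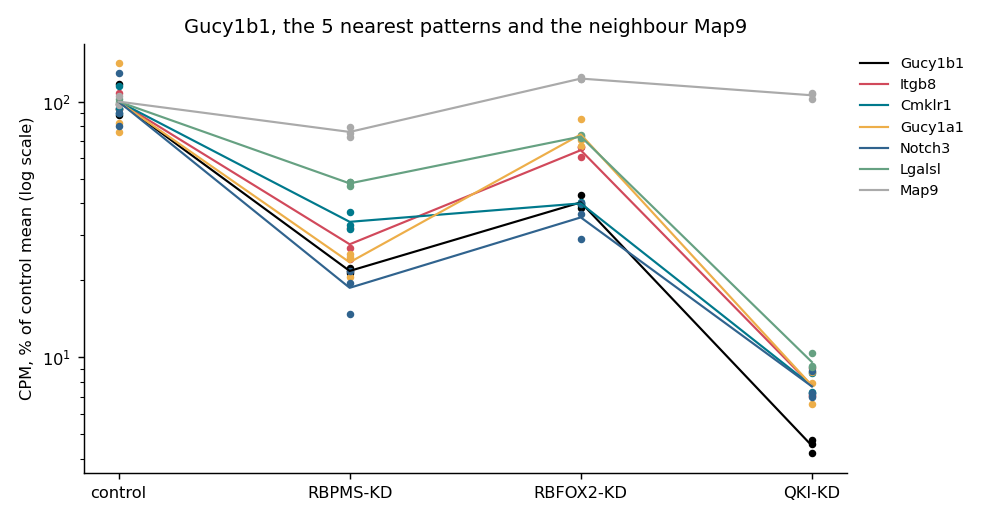
Level of Gucy1b1, the 5 genes of nearest pattern and the neighbouring gene Map9 by group, in percent of each gene's control mean on a log axis (points are libraries, lines join means). The 6 former are lowest in QKI-KD, where Gucy1b1 stood at 4.52% of control, while Map9 lies above control in RBFOX2-KD and overlaps with it in QKI-KD.

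Prkg1 encodes the cGMP-dependent kinase of smooth muscle. It held 8.04, 9.35 and 9.18 CPM in control, 5.71, 4.80 and 6.63 in RBPMS-KD and 6.45, 6.53 and 5.88 in RBFOX2-KD. QKI-KD libraries held 4.91, 4.91 and 5.23 CPM. Every knockdown library was below every control library, and the knockdown groups overlapped with one another except for RBFOX2-KD and QKI-KD. The fall was -0.64 on the log2 scale in RBPMS-KD (SE 0.095, adjusted p = 1.85e-05) and -0.50 in RBFOX2-KD (SE 0.094, adjusted p = 0.00020), and the value in QKI-KD was -0.82 (SE 0.096). Between RBFOX2-KD and RBPMS-KD the difference of 0.14 did not pass (adjusted p = 0.228, 95% interval -0.064 to 0.346).

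The phosphodiesterases ranked the knockdowns differently. Pde5a, the cGMP-specific enzyme that sildenafil inhibits, held 21.9, 21.7 and 26.8 CPM in control and 8.44, 8.38 and 7.57 in RBFOX2-KD. RBPMS-KD libraries held 16.4, 14.0 and 15.5 CPM and QKI-KD libraries 13.8, 14.1 and 14.6. RBFOX2-KD was the lowest group and overlapped with none, while RBPMS-KD and QKI-KD overlapped. Pde5a fell by 1.53 on the log2 scale in RBFOX2-KD (SE 0.080, adjusted p = 3.25e-11) and by 0.62 in RBPMS-KD (SE 0.077, adjusted p = 2.35e-06), and the direct comparison put RBFOX2-KD lower (-0.91, SE 0.081, adjusted p = 5.19e-08). It was the only one of the 8 genes that passed in that direction. In QKI-KD the log2 fold change was -0.73 (SE 0.077).

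For Pde3a, an enzyme that hydrolyses cAMP and is inhibited by cGMP, RBFOX2-KD was instead the highest of the knockdown groups. Pde3a held 61.6, 61.4 and 76.4 CPM in control, 24.5, 19.4 and 23.9 in RBPMS-KD, 37.0, 37.3 and 34.3 in RBFOX2-KD and 20.6, 22.1 and 20.2 in QKI-KD. All knockdown libraries were below all control libraries, RBFOX2-KD lay between control and the other two groups, and those overlapped. Pde3a fell by 1.56 on the log2 scale in RBPMS-KD (SE 0.087, adjusted p = 1.07e-10) and by 0.88 in RBFOX2-KD (SE 0.085, adjusted p = 9.30e-08), with the direct comparison at 0.68 (SE 0.087, adjusted p = 3.77e-06). In QKI-KD the value was -1.66 (SE 0.088).

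The ratio of Pde3a to Pde5a counts within a library brought this out with little spread. It was 2.83 ± 0.0244 in control, 1.47 ± 0.0802 in RBPMS-KD, 4.45 ± 0.0755 in RBFOX2-KD and 1.48 ± 0.0939 in QKI-KD. The ratio was lower than control in every RBPMS-KD library and higher in every RBFOX2-KD library (exact permutation tests, two-sided, p = 0.1 for each and for RBFOX2-KD against RBPMS-KD, the smallest p possible).

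**Figure D3:**
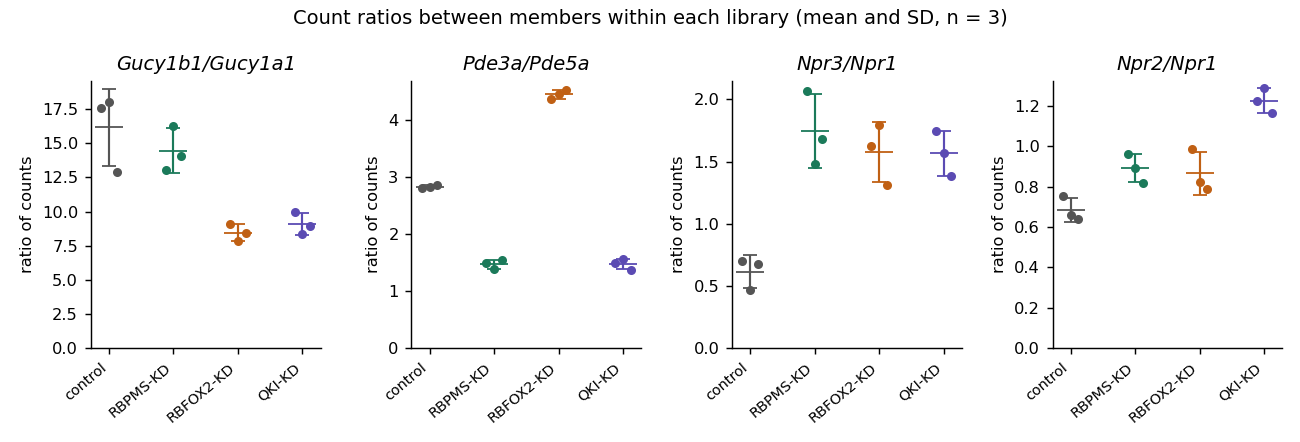
Ratio of counts between pairs of cGMP signalling genes within each library (points, axes from 0), with the mean and SD of 3 libraries, by group. Pde3a/Pde5a is higher than control in RBFOX2-KD (4.45) and lower in RBPMS-KD (1.47), and Npr3/Npr1 is higher than control in each knockdown.

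The natriuretic peptide receptors split in direction. Npr1, the cyclase receptor for atrial and B-type peptides, held 8.14, 9.87 and 9.64 CPM in control, 4.02, 4.50 and 4.60 in RBPMS-KD and 4.87, 4.94 and 5.53 in RBFOX2-KD. These groups did not overlap, whereas the QKI-KD libraries, at 8.02, 7.90 and 8.53 CPM, overlapped with control. Npr1 fell by 1.07 on the log2 scale in RBPMS-KD (SE 0.083, adjusted p = 6.26e-09) and by 0.85 in RBFOX2-KD (SE 0.081, adjusted p = 8.00e-08), and its value in QKI-KD was -0.18 (SE 0.079). The direct difference of 0.22 (SE 0.085, adjusted p = 0.0340) did not pass without RBPMS-KD library 1 or RBFOX2-KD library 3.

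Npr2, the cyclase receptor for C-type peptide, held 6.12, 6.49 and 6.17 CPM in control, 3.86, 4.03 and 3.78 in RBPMS-KD and 4.82, 4.06 and 4.36 in RBFOX2-KD. QKI-KD libraries were the highest of the 12, at 9.83, 10.2 and 9.95 CPM. Npr2 fell by 0.69 on the log2 scale in RBPMS-KD (SE 0.071, adjusted p = 2.35e-07) and by 0.50 in RBFOX2-KD (SE 0.069, adjusted p = 6.73e-06). In QKI-KD its log2 fold change was 0.67 (SE 0.067). The direct difference between RBFOX2-KD and RBPMS-KD was 0.18 (SE 0.072, adjusted p = 0.0410), was lost in 4 of 6 fits when 1 library of either group was dropped, and had an adjusted p of 0.106 when these 6 libraries were fitted alone.

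Npr3, the clearance receptor that takes up and removes the peptides and lacks a cyclase domain, was the only one of the 8 genes higher in all knockdowns. It held 5.73, 4.61 and 6.52 CPM in control, 8.32, 6.67 and 7.75 in RBPMS-KD, 7.91, 8.87 and 7.28 in RBFOX2-KD and 14.0, 12.4 and 11.8 in QKI-KD. All knockdown libraries were above all control libraries, with the closest pair at 6.67 and 6.52 CPM, and QKI-KD was above all others. Npr3 rose by 0.43 on the log2 scale in RBPMS-KD (SE 0.115, adjusted p = 0.00382) and 0.52 in RBFOX2-KD (SE 0.114, adjusted p = 0.00081), and stood at 1.19 in QKI-KD (SE 0.112). The groups RBFOX2-KD and RBPMS-KD overlapped, with a difference of 0.085 (adjusted p = 0.543, 95% interval -0.153 to 0.323).

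Within libraries the ratio of Npr3 to Npr1 counts was 0.616 ± 0.130 in control, 1.74 ± 0.298 in RBPMS-KD, 1.58 ± 0.242 in RBFOX2-KD and 1.57 ± 0.181 in QKI-KD. The knockdown ratios were above all control ratios (exact permutation test, two-sided, p = 0.1 for RBPMS-KD and for RBFOX2-KD, the smallest possible) and overlapped with one another (p = 0.5 for RBFOX2-KD against RBPMS-KD). The ratio moved through a lower Npr1 and a higher Npr3 in RBPMS-KD and RBFOX2-KD, whereas in QKI-KD the Npr1 libraries overlapped with control.

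**Figure D4:**
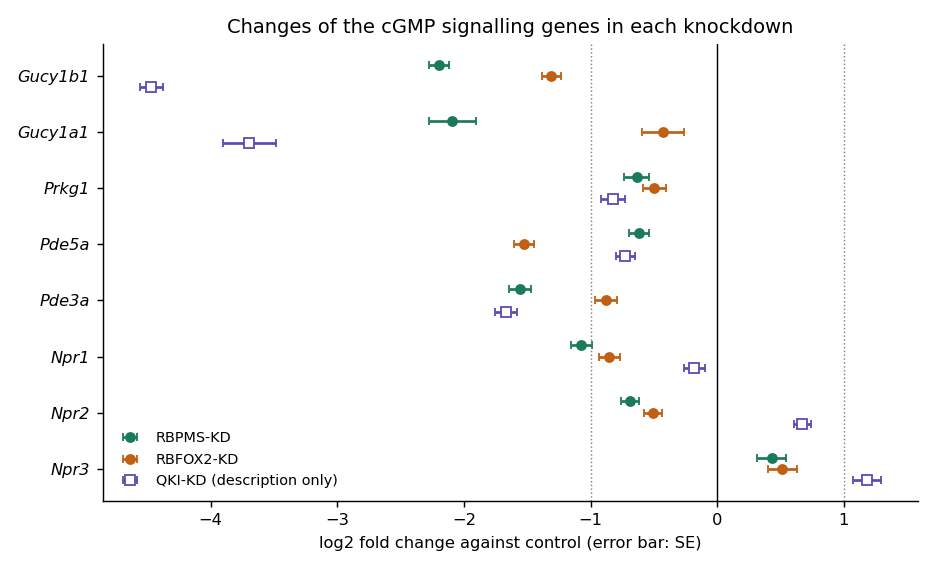
Log2 fold change against control of the 8 tested genes in each knockdown, with SE as error bars. Filled points are the tested comparisons with RBPMS-KD and RBFOX2-KD, open squares the QKI-KD values given as a description, and dotted lines mark a log2 fold change of 1 in either direction.

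The levels of smooth muscle markers differed between the groups as well. Over 8 markers (Acta2, Tagln, Myl9, Cnn1, Myh11, Smtn, Mylk and Myocd), all of them tested, the summed level ran from 2110 to 2175 CPM in control, 1069 to 1176 in RBPMS-KD, 827 to 925 in RBFOX2-KD and 1441 to 1526 in QKI-KD. The actin Acta2 held the largest share of the sum, at 990 ± 16.3 CPM in control, 315 ± 13.9 in RBPMS-KD, 229 ± 20.2 in RBFOX2-KD and 444 ± 25.6 in QKI-KD. Single markers did not all follow the sum. The heavy chain Myh11 averaged 6.48 CPM in control and 8.23, 13.4 and 7.38 in RBPMS-KD, RBFOX2-KD and QKI-KD, and the coactivator Myocd 22.1, 24.8, 22.7 and 38.1 in the same order of groups. Smtn averaged 126, 117, 142 and 91.1 CPM in that order of groups, Mylk 4.18, 2.02, 2.52 and 1.44, and Tagln 687 in control and 704 in QKI-KD. RBFOX2-KD was the lowest group for the summed markers, as it was for Pde5a and by mean for Acta2, Tagln and Cnn1. QKI-KD had the lowest mean for Gucy1b1, Gucy1a1, Prkg1 and Pde3a, and for the markers Smtn and Mylk. For Prkg1 and Pde3a its libraries overlapped with those of RBPMS-KD. In bulk RNA, fewer cells of one state and less RNA per cell cannot be told apart, and the part of the marker change in the cGMP genes was not tested.

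Markers of other cell types were low. Over 6 endothelial markers the summed level was 8.83 to 11.02 CPM in control, 8.90 to 9.46 in RBPMS-KD, 5.31 to 5.88 in RBFOX2-KD and 6.68 to 6.92 in QKI-KD, mostly from Cdh5 (6.77 ± 0.620 CPM in control), with Kdr at no more than 6 counts in a library. Over 4 leukocyte markers it was 1.40 to 1.56 CPM in control, 1.97 to 2.45 in RBPMS-KD, 1.68 to 2.31 in RBFOX2-KD and 5.40 to 5.93 in QKI-KD, where Csf1r stood at 3.63 ± 0.337 CPM, while Ptprc and Adgre1 never exceeded 4 counts. The part of these markers in the results was not tested.

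Beyond the 9 genes, 55 other genes of the pathway were listed and in the count table, from the supply of nitric oxide and peptides to the targets of the kinase, and 36 of them were tested. In RBPMS-KD 4 were changed and higher and 3 changed and lower, beside 5.16% and 4.50% of all genes. In RBFOX2-KD it was again 4 and 3, beside 6.96% and 4.73%. In QKI-KD 5 were higher and 9 lower past the same thresholds, beside 17.5% of all genes (8.28% higher and 9.24% lower). The higher genes there include Prkg2 and the channel gene Cngb3. Both passed the filter on low counts only through the QKI-KD libraries, where they are high, so these 2 calls carry no weight. Cngb3, with 0 counts in control, is also among the higher genes in RBPMS-KD (3 to 10 counts) and RBFOX2-KD (4 to 13 counts). In the direct comparison 2 were changed and lower in RBFOX2-KD and none higher, beside 3.10% and 4.41%. The median log2 fold change of the 36 genes was -0.13 in RBPMS-KD, -0.20 in RBFOX2-KD and -0.12 in QKI-KD.

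Among the peptide ligands and the enzymes that handle them, Nppb, which encodes B-type natriuretic peptide, was higher in each knockdown. It went from 0.910 ± 0.198 CPM in control to 7.01 ± 0.702 in RBPMS-KD, 3.86 ± 0.203 in RBFOX2-KD and 2.73 ± 0.631 in QKI-KD, with the lowest knockdown library at 2.31 CPM and the highest control library at 1.10 CPM. Nppb rose by 2.94 on the log2 scale in RBPMS-KD (SE 0.159, adjusted p = 6.56e-11) and 2.08 in RBFOX2-KD (SE 0.161, adjusted p = 5.50e-09). Its receptor Npr1 fell in both groups, as given above. The genes for the atrial and C-type peptides were barely detected, with at most 14 counts of Nppa and 8 of Nppc in any library. Mme, the neprilysin gene, whose product degrades natriuretic peptides, was 119 ± 6.34 CPM in control, 53.3 ± 4.18 in RBPMS-KD (log2 fold change -1.16, SE 0.051, adjusted p = 4.54e-12), 59.7 ± 0.717 in RBFOX2-KD (-0.996, SE 0.050, adjusted p = 2.06e-11) and 17.6 ± 0.395 in QKI-KD.

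On the nitric oxide side the 3 synthase genes were scarce, with Nos3 at 13 to 35 counts per control library. Gch1, which makes the synthase cofactor tetrahydrobiopterin, was 1.83 ± 0.203 CPM in control and 0.706 ± 0.115 in QKI-KD. It fell by 0.90 on the log2 scale in RBPMS-KD (SE 0.169, adjusted p = 0.00020) and by 0.76 in RBFOX2-KD (SE 0.166, adjusted p = 0.00074). Ddah2, listed here among genes linked to the synthases, fell by 1.21 in RBFOX2-KD (SE 0.099, adjusted p = 1.11e-08), from 12.01 ± 0.902 to 5.19 ± 0.266 CPM. It fell by 0.56 in RBPMS-KD (SE 0.097, adjusted p = 7.52e-05) and stood at 9.70 ± 1.64 CPM in QKI-KD. Nostrin, a protein that binds the endothelial synthase, was 2.55 ± 0.256 CPM in control and 0.515 ± 0.152 in QKI-KD. Nostrin fell by 0.99 in RBPMS-KD (SE 0.166, adjusted p = 6.28e-05), and its value of -0.29 in RBFOX2-KD did not pass (adjusted p = 0.124).

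Among other enzymes that make or break down cGMP, the receptor cyclase gene Gucy2g was low and rose, from 0.650 ± 0.160 CPM in control to 1.36 ± 0.136 in RBPMS-KD (log2 fold change 1.07, SE 0.177, adjusted p = 5.05e-05) and 1.87 ± 0.0325 in RBFOX2-KD (1.53, SE 0.172, adjusted p = 5.91e-07). Gucy2g stood at 1.07 ± 0.208 CPM in QKI-KD, with every library above control. The calcium-activated phosphodiesterase genes Pde1a and Pde1c were lower in QKI-KD, Pde1c at 4.60 ± 0.0848 CPM in control and 0.693 ± 0.206 in QKI-KD, and Pde1a at 1.77 ± 0.300 and 0.694 ± 0.155. Both fell in RBPMS-KD, Pde1a by 0.82 on the log2 scale (SE 0.162, adjusted p = 0.00031) and Pde1c by 0.29 (SE 0.115, adjusted p = 0.0384). In RBFOX2-KD neither passed the test, with log2 fold changes of 0.010 and 0.075 for Pde1a and Pde1c.

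Of the targets further down, Irag1, a kinase substrate that holds back calcium release, and Itpr1, the calcium channel it acts on, were both lower in each knockdown. Irag1 held 15.4, 14.6 and 19.7 CPM in control, 5.82, 5.85 and 5.57 in RBPMS-KD, 9.24, 9.71 and 8.90 in RBFOX2-KD and 4.16, 4.94 and 4.90 in QKI-KD. The groups were in the same order as for Gucy1b1 and did not overlap. Irag1 fell by 1.53 on the log2 scale in RBPMS-KD (SE 0.097, adjusted p = 5.09e-10) and by 0.83 in RBFOX2-KD (SE 0.092, adjusted p = 5.21e-07). Itpr1 went from 106 ± 7.47 CPM to 55.3 ± 6.17 in RBPMS-KD (-0.94, SE 0.070, adjusted p = 3.98e-09), 52.0 ± 1.34 in RBFOX2-KD (-1.02, SE 0.070, adjusted p = 1.06e-09) and 39.4 ± 2.89 in QKI-KD.

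Cnga4, a subunit of cyclic nucleotide-gated channels known from olfactory neurons, was nearly silent in control at 13 to 23 counts per library. It reached 128 to 153 counts in RBPMS-KD and 269 to 346 in QKI-KD, against 33 to 42 in RBFOX2-KD. The log2 fold change was 3.30 in RBPMS-KD (SE 0.203, adjusted p = 3.41e-10) and 1.17 in RBFOX2-KD (SE 0.238, adjusted p = 0.00041), and the direct comparison put RBFOX2-KD lower (-2.13, SE 0.178, adjusted p = 2.38e-08). Prkg2, the second cGMP-dependent kinase gene, was picked out after its values were seen: it had 0, 2 and 0 counts in control, 0 in each RBPMS-KD library, 4, 2 and 0 in RBFOX2-KD, and 37, 26 and 48 in QKI-KD.

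**Figure D5:**
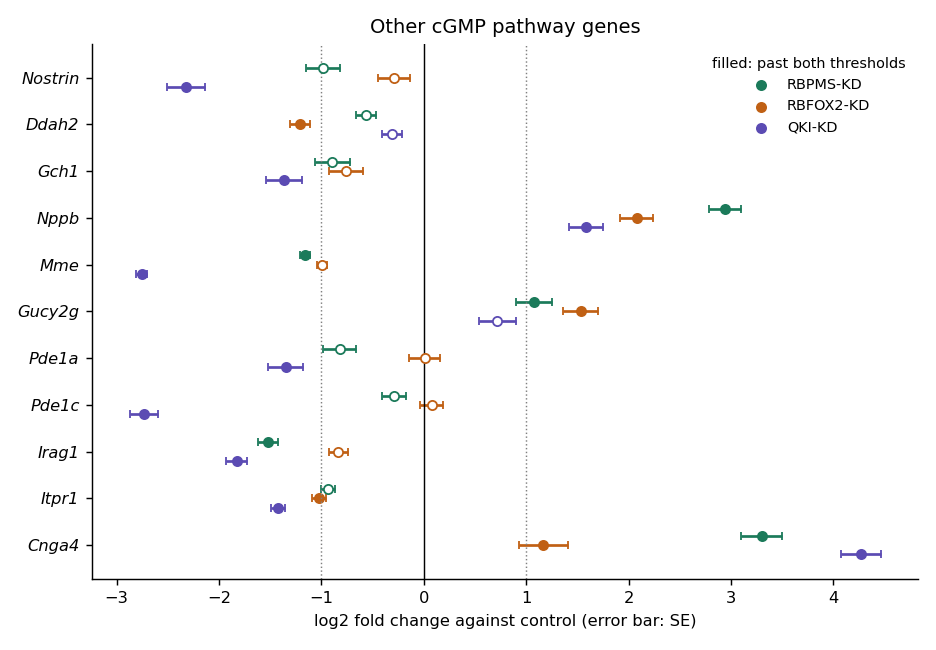
Log2 fold change against control, with SE, of the 11 other cGMP pathway genes that were past both thresholds in at least 1 knockdown and averaged 1 CPM or more. Filled points are past both thresholds; Nppb and Cnga4 are to the right of control in every knockdown and Irag1, Itpr1 and Mme to the left.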

How the data were processed

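RNA of 12 libraries was analysed from the tables that the authors deposited. The count table holds raw counts per gene, which the study made with STAR (version 2.5.2a per the labels) and featureCounts on mRatBN7.2 with a RefSeq annotation. The second table holds a normalised signal deposited by the authors after noise filtering and quantile normalisation, and served as an alternative, on the log2 scale with limma 3.58.1. Strand and the treatment of shared reads in counting are not given in the sources used here, so close paralogues and overlapping genes are uncertain. Of count values from 1 to 19, 68.1% were even, against 50.9% above 1000, and counts were used as deposited.

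Genes were filtered with filterByExpr by group, scaled by TMM and fitted over all libraries with 1 coefficient per group in edgeR 4.0.16 (R 4.3.3, glmQLFit and glmQLFTest, two-sided). Adjusted p-values are Benjamini-Hochberg over 18438 genes. Intervals of log2 fold changes were taken from the SE of the edgeR fit, which includes the spread between libraries. The limit of 3 counts used where a library had 0 counts covers counting error only. Alternatives were RLE factors, library totals, other filters, DESeq2 1.42.0, a replicate block, the 6 libraries alone, the normalised table and leaving out each library. Replicate libraries differed by more than counting noise, so none was the same library entered again. This cannot tell whether they came from separate cultures. RBPMS-KD library 2 stood furthest from its fellows. The chi-square per degree of freedom was 57.8 against library 1 and 45.6 against library 3, beside 9.27 between libraries 1 and 3.

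The members and the lists of pathway genes and markers were chosen with earlier results of these data known. Named were the members, the siRNA targets, changed pathway genes averaging 1 CPM or more, the 5 genes nearest to Gucy1b1 and 2 neighbours on each side of its locus. RefSeq promoters were found for 8 of the 9 members.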

Additional observations from a re-analysis of the deposited data

How the results depend on the processing

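In RBPMS-KD, RBFOX2-KD and the direct comparison of both, the counts of members past the adjusted p and of changed members kept their direction, and each stayed within 1.5 times its value, in every alternative that was run. Members past the adjusted p in RBFOX2-KD numbered 7 to 8 and in the direct comparison of RBFOX2-KD with RBPMS-KD 4 to 7, and changed members in RBPMS-KD numbered 3 to 4, with 3 in the normalised table. Without 1 library, the log2 fold change of Gucy1b1 ran from -2.28 to -2.07 in RBPMS-KD, from -1.39 to -1.18 in RBFOX2-KD and from -4.55 to -4.34 in QKI-KD, each range between leaving out control library 2 and control library 3. Gucy1a1 ran from -2.26 to -1.76 in RBPMS-KD and from -0.59 to -0.097 in RBFOX2-KD over the same libraries. The direct difference of Npr3 turned negative without RBPMS-KD library 2 (-0.0023) and without RBFOX2-KD library 2 (-0.00065), against 0.16 at most when any other library was left out and 0.18 with library totals, and that of Prkg1 passed the threshold without RBPMS-KD library 3 (0.26) and with library totals (0.24). In the normalised table the direct differences of Npr1 (0.14) and Npr2 (0.084) did not pass. The cause of these changes was not tested. In QKI-KD, the description of Npr1 was nearest to 0 in the normalised table (-0.0089).

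Scaling by library totals put the median log2 difference of all genes at 0.108 in the direct comparison, and the share of changed genes that were higher there went from 58.7% to 69.0%. A filter at a mean of 200 counts left 692, 840, 1484 and 435 changed genes in RBPMS-KD, RBFOX2-KD, QKI-KD and the direct comparison. The main fit gave 1781, 2156, 3231 and 1386. This filter left 12237 genes to test, against 18438 in the main fit, and why fewer were changed was not tested. The normalised table with a pseudocount of 5 gave 822 in the direct comparison, 44.3% of them higher. Shared replicate numbers did not pair the libraries: 3 of the 12 correlated best with their own number, and a fit with the replicate number as a block gave 1752, 2110, 3203 and 1361 changed genes. Under the block the direct difference of Npr2 had an adjusted p of 0.0557. Depth limits Gucy1a2 and Prkg2, both with 10 counts or fewer in every library outside QKI-KD, and groups of 3 libraries are too few for an exact test of 1 gene to fall below 0.1.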
